A study of Mus musculus with 12 samples.

Results

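Cardiomyocytes derived from mouse embryonic stem cells (CM, 3 arrays) were set against the undifferentiated stem cells from which such cells are made (ES-LIF(+), 3 arrays), which are 6 of the 12 arrays of the series. Of the 45101 probe sets on the array, all 45037 that are not array controls were compared. The cells were of the CGR8 line, a mouse embryonic stem cell line that grows without feeder cells, and every value comes from this line alone. ES-LIF(+) cells were grown in Glasgow's modified Eagle's medium with 7.5% fetal bovine serum and leukemia inhibitory factor (LIF), the cytokine that holds mouse embryonic stem cells undifferentiated. CM cells descended from stem cells stimulated with a mixture of IGF1, VEGF, EGF, FGF, BMP, TGFβ, IL3, IL6 and IL-13, were kept for 9 days in medium with 20% serum, and were recovered from a Percoll density gradient, which sorts cells by buoyancy and not by a marker. The remaining arrays hold stem cells after 48 h without LIF (ES-LIF(-)) and cardiopoietic cells (CP), intermediate cells made with the same mixture, then held 5 days with 30 ng/ml TNFα in medium with 3% serum. They entered the model that estimates the spread, and CP served as the stage most like CM. Each stage was sampled independently 3 times by the study's account.

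A heart muscle cell contracts because myosin filaments pull on actin filaments within repeating units called sarcomeres, and it does so when calcium is released from the sarcoplasmic reticulum and relaxes when calcium is pumped back. A small set of transcription factors, among them Nkx2-5, Gata4, Tbx5, Hand2 and Mef2c, is known for switching on these genes in the embryonic heart. Embryonic stem cells are held in their state by another set, with Pou5f1, Nanog and Sox2 at its center, and they divide fast with short gap phases.

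Marker genes went with both labels, in lists that were chosen with earlier results of these data known. All 12 measured cardiomyocyte markers and none of the 10 stem cell markers were higher in CM, and all 10 stem cell markers were lower. A gene, of the 18193 measured, was called higher or lower when limma's adjusted p was under 0.05 and the difference exceeded 1.5-fold. That p was corrected over all 45037 probe sets by the Benjamini-Hochberg procedure. Every difference is CM minus ES-LIF(+) on the scale of log2(signal + 16), with its standard error (SE, n = 3 and 3), and each gene is represented by its probe set with the highest mean log2 signal over the 12 arrays. These are bulk samples, in which fewer cells of a type and less RNA per cell cannot be told apart. Between the stages, 3611 genes rose (19.8% of those tested) and 3199 fell (17.6%), 37.4% in all, with a median difference over all genes of 0.11. Of the 45037 probe sets, named or not, 30.3% were called. The rises reached much further than the falls. Among called genes, 171 rose more than 16-fold against 3 that fell as far, and 30 rose more than 64-fold against 0 that fell as far.

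Arrays of the same stage lay close together. The root mean square log2 distance was 0.61 to 0.65 within ES-LIF(+), 0.57 to 0.61 within CM and 1.10 to 1.17 between the stages. The deposited signals had been scaled to a common trimmed mean of about 497 units on each array, yet the median signal was 101 to 111 units on ES-LIF(+) arrays and 128 to 144 units on CM arrays. The 18 hybridization control probe sets, which read RNA added in fixed amounts, were all higher in CM without overlap, by a median of 0.75. Centring each array on its median would lower every difference by 0.32, and scaling to these controls would lower every difference by 0.75. As deposited, 53.0% of the called genes were higher in CM, against 33.3% after centring and 15.8% after scaling to the controls. Small differences therefore depend on the scaling.

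The sarcomere list had the highest median of the functional lists examined. Of 30 measured members, 29 rose and 0 fell, with a median difference of 5.04, which is beside 19.8% of all genes higher and a median of 0.11. Cardiac troponin T (Tnnt2), which anchors the calcium switch to the thin filament, had signals of 7.5, 10.7 and 11.3 units on the ES-LIF(+) arrays and of 30710, 24471 and 30739 units on the CM arrays. Its difference of 10.11 ± 0.18 (adjusted p = 2.14e-14) was the largest of all genes, a rise of 1110-fold on this scale. The ES-LIF(+) signals lay far below the median of an array, and the size of the rise moved with the constant added to the signal, from 8.595 with 64 to 11.38 with 1.

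The regulatory light chain of atrial myosin, Myl7, read 161, 123 and 80.8 units in ES-LIF(+) and 35236, 33108 and 40352 units in CM, a difference of 8.08 ± 0.22. Its ventricular counterpart Myl2 read 53.9, 31.2 and 97.2 units against 13887, 14230 and 13399 units, a difference of 7.59 ± 0.35. Alpha myosin heavy chain (Myh6), the fast motor of the adult mouse heart, read 144, 102 and 137 units against 20414, 16867 and 18833 units, a difference of 7.04 ± 0.17. The stages did not overlap in any of these genes. Beta myosin heavy chain (Myh7), the slow motor of the fetal mouse heart, rose by 3.82 ± 0.31. Troponin C (Tnnc1), the calcium sensor of the thin filament, rose by 8.10 ± 0.18, and the small muscle protein Smpx rose by 8.26 ± 0.31.

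Isoforms of different muscle and of different age were read in the same samples. Slow skeletal troponin I (Tnni1), the form of the embryonic heart, rose by 7.22 ± 0.34, and cardiac troponin I (Tnni3), the form that replaces it, rose by 6.41 ± 0.29. Cardiac actin (Actc1) read 355, 439 and 336 units in ES-LIF(+) and 33817, 29567 and 37698 units in CM, a difference of 6.43 ± 0.17. Skeletal actin (Acta1) also rose, by 2.22 ± 0.23. The essential light chains Myl4 (atrial) and Myl3 (ventricular) rose by 7.84 ± 0.14 and 4.82 ± 0.17. The Z-disk crosslinker Actn2 rose by 5.04 ± 0.25, myosin-binding protein C (Mybpc3) by 4.86 ± 0.11 and the giant spring protein titin (Ttn) by 4.32 ± 0.34. The Z-disk protein Myot was the member not called, at 0.44 ± 0.46, with 59.9, 11.5 and 56.3 units in ES-LIF(+) and 55.9, 56.0 and 56.4 units in CM. The sign of that value turned when ES-LIF(+) array 2 was left out (-0.04).

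**Figure D1:**
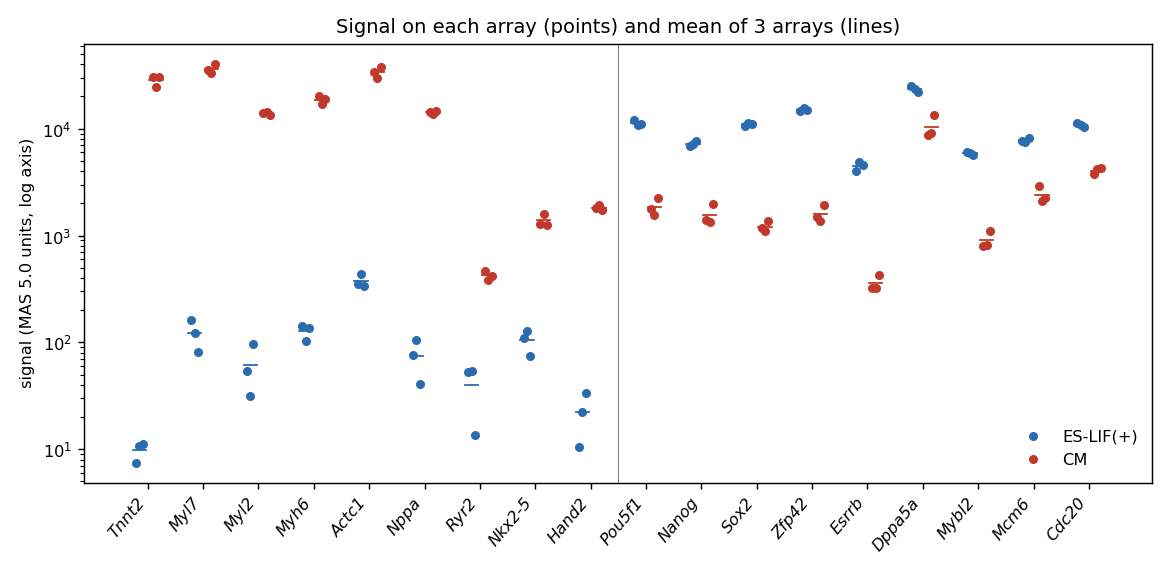
Signal in MAS 5.0 units (log axis) on each array for 9 genes that rose and 9 genes that fell in CM; points are arrays, blue for ES-LIF(+) and red for CM, and short lines are means of 3 arrays. Tnnt2 lies at 7.5 to 11.3 units in ES-LIF(+) and at 24471 to 30739 units in CM, while the stem cell genes on the right fell to lower but still readable signals, 1557 to 2233 units for Pou5f1.

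The start regions of a few of these genes are shown because they carry a CArG box, the element bound by serum response factor, which is known for regulating muscle actin and myosin genes. Among promoters from RefSeq (build GRCm38.p6, 250 bases before to 50 bases after each transcription start, both strands searched), 8 of the 36 promoters of sarcomere genes held a CArG box (22.2%), beside 1.63% of all 32851 promoters. A MEF2 site was held by 5 of the 36 (13.9%), beside 3.19% of all promoters, and in 226 of the 1047 promoters with a MEF2 site it shared bases with TATAAA. Of the 30 measured sarcomere genes, 26 had a promoter among these, so some genes counted with several promoters. Among promoters of the genes on the array, 1.35% held a CArG box and 2.1% a MEF2 site. A match describes the letters of the window and was not tested as a binding site. The 150 bases before the start are printed 5′ to 3′ on the strand of the gene, with the CArG box in capitals, for Actc1 (chr2:114052876-114053025, minus strand), Myl7 (chr11:5898783-5898932, minus strand) and Myl3 (chr9:110763528-110763677, plus strand). The box ended 38, 52 and 76 bases before the start, in that order.
Actc1: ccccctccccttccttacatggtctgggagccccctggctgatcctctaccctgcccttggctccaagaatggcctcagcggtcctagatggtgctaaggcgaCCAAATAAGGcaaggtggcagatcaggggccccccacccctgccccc
Myl7: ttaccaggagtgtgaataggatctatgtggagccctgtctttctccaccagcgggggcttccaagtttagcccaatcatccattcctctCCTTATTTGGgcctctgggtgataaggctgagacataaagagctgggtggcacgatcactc
Myl3: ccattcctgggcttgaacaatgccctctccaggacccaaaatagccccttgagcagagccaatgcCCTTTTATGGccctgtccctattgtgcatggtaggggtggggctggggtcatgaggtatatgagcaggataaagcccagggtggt

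Serum response factor itself (Srf) rose by 1.14 ± 0.11, from 715, 766 and 830 units to 1776, 1672 and 1679 units, and was not called after scaling to the hybridization controls (0.39). Its muscle coactivator myocardin (Myocd) read 103, 50 and 49.5 units in ES-LIF(+) and 2032, 1969 and 1940 units in CM, a difference of 4.64 ± 0.28. The CArG box was also held by 5 of the 34 promoters of the costamere and intercalated disc list (14.7%) and by 2 of the 21 promoters of the cardiac transcription factors (9.52%).

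Genes for calcium release and uptake were the next group. Of 22 measured members, 19 rose and 0 fell, with a median difference of 2.86. The release channel of the sarcoplasmic reticulum, Ryr2, read 52.5, 54.3 and 13.7 units in ES-LIF(+) and 469, 387 and 417 units in CM, a difference of 3.07 ± 0.44 (adjusted p = 3.87e-05). Triadin (Trdn), which holds that channel to its calcium store, rose by 5.46 ± 0.49 and junctophilin 2 (Jph2), which ties the reticulum to the cell membrane, by 4.38 ± 0.39. Both inhibitors of the calcium pump rose as well. Sarcolipin (Sln) read 7.8, 2.9 and 6.5 units against 5760, 5442 and 5173 units, a difference of 7.98 ± 0.35, and phospholamban (Pln) rose by 4.44 ± 0.22. The sodium-calcium exchanger Slc8a1 rose by 4.27 ± 0.30. Junctophilin 1 (Jph1), the skeletal muscle form, went the other way at -0.49 ± 0.15 and was called lower once the arrays were centred (-0.81).

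The calcium pump itself, Atp2a2, had 6 probe sets that did not move together. The one with the highest mean over the 12 arrays, which represents the gene here, read 7641, 7014 and 7941 units in ES-LIF(+) and 7905, 8049 and 7299 units in CM, a difference of 0.04 ± 0.07 that was not called and was negative after centring (-0.28) and after scaling to the controls (-0.71). Another read 1189, 1025 and 1102 units in ES-LIF(+) and 25646, 23964 and 26443 units in CM, a difference of 4.50 ± 0.08. A further probe set rose by 4.71 ± 0.17 and another by 0.70 ± 0.09, while the dimmest ones were not called. The arrays of the stages overlapped for the first probe set and were far apart for those that rose by 4.50 and 4.71, so the gene was called or not depending on the probe set, and the mean over its probe sets was 1.69.

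Channels and conduction genes rose less evenly, with 12 of 20 members higher, 0 lower and a median of 1.47. The largest rise was that of Fxyd1 (phospholemman), a regulator of the sodium pump, at 4.82 ± 0.45. Popdc2, a membrane protein that binds cyclic AMP and is known in the pacemaker, rose by 4.24 ± 0.18. The potassium channels Kcnj5, of the acetylcholine-gated current, and Kcnh2, of the rapid repolarizing current, rose by 3.12 ± 0.33 and 2.43 ± 0.16. Of the gap junction genes, Gja5, the connexin of atrium and conduction system, read 5.0, 7.1 and 5.3 units against 174, 225 and 32.2 units, a difference of 2.58 ± 0.46. Gja1, the main connexin of working heart muscle, was already bright in stem cells at 6769 to 7051 units, reached 8594 to 10403 units in CM and was not called at 0.49 ± 0.10. Over the 6 Gja1 probe sets the difference ranged from -0.30 to 1.67, and 1 was called higher.

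Proteins that join the contractile apparatus to the membrane and to neighboring cells made up a list of 29 measured members, of which 21 rose, 1 fell and the median was 1.70. Ankrd1, a stretch-responsive protein of the sarcomere, read 86.0, 53.8 and 92.9 units in ES-LIF(+) and 20918, 17261 and 19456 units in CM, a difference of 7.70 ± 0.20. The small heat shock proteins Hspb7 and Cryab, which guard filaments, rose by 6.31 ± 0.17 and 6.24 ± 0.36, and desmin (Des), the muscle intermediate filament, by 5.49 ± 0.37. Utrophin (Utrn), the relative of dystrophin made in most cells, was the member that fell, from 3369, 4262 and 4091 units to 1136, 1104 and 1075 units (-1.80 ± 0.11). In several genes of the text only part of the probe sets was called. It was 1 of 2 for Sln, Myl4, Des, Mb, Fbln2, Dcn and Enox1, and 1 of 3 for Utrn, Tfcp2l1, Cbx7 and Lifr, among others. For Tap1 it was 1 of 4 and for Stat3 2 of 4, with lowest differences of -0.20 and -0.35. The highest differences were -0.29 for Cbx7 and -0.08 for Lifr. For genes with 2 probe sets, the one not called stood at -0.49 for Mb, 0.02 for Fbln2 and 0.20 for Dcn.

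Cardiac transcription factors rose almost without exception. Of 26 measured members, 25 rose and 0 fell, with a median of 2.82. Tbx20 read 75.9, 70.4 and 72.0 units in ES-LIF(+) and 5576, 4729 and 4396 units in CM, a difference of 5.78 ± 0.21. Hand2, named for its role in heart and neural crest, read 10.4, 22.3 and 33.7 units against 1803, 1933 and 1738 units, a difference of 5.64 ± 0.25. Nkx2-5 read 111, 127 and 74.8 units against 1291, 1606 and 1263 units, a difference of 3.56 ± 0.25. No CM array overlapped an ES-LIF(+) array in these genes. Mef2c rose by 4.29 ± 0.42, Gata4 by 3.48 ± 0.20 and Tbx5 by 3.49 ± 0.51. Tbx18, known from the epicardium and the sinus node, rose by 4.64 ± 0.40, and Isl1, a factor of progenitors of the second heart field, by 2.86 ± 0.29. Hey1, a Notch target, was the member not called, at 0.22 ± 0.41, with 37.3 to 129 units in ES-LIF(+) and 66.0 to 130 units in CM, and its sign turned after centring (-0.10) and without ES-LIF(+) array 1 (-0.22).

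Of the natriuretic peptide genes and their receptors, 5 of 8 rose, 1 fell and the median was 2.89. Atrial natriuretic peptide (Nppa), a hormone of atrial and embryonic heart muscle, read 75.8, 106 and 40.8 units in ES-LIF(+) and 14238, 13847 and 14596 units in CM, a difference of 7.37 ± 0.23. The B-type peptide (Nppb) rose by 3.95 ± 0.20 and corin (Corin), the protease that activates both, by 3.21 ± 0.29. Among the receptors, Npr2 rose by 3.76 ± 0.25 from 21.0 to 53.2 units up to 609 to 680 units. Npr1, the receptor of Nppa and Nppb, fell by 1.18 ± 0.30 on the log2 scale, from 99.9 to 141 units down to 31.8 to 53.1 units, levels near or below the array median.

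**Figure D2:**
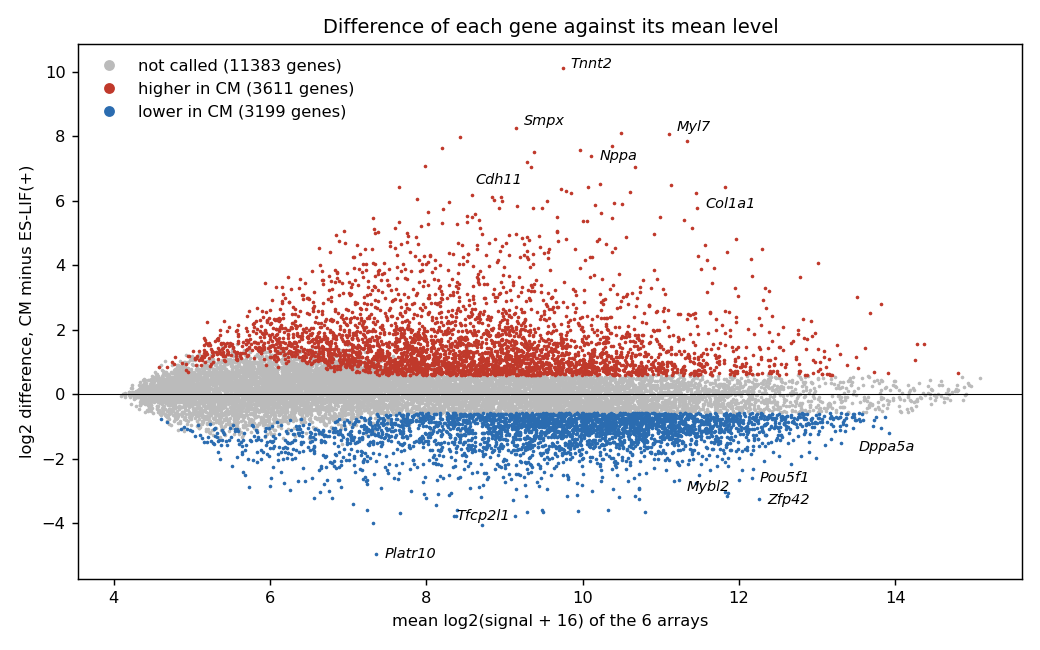
Log2 difference, CM minus ES-LIF(+), of each of the 18193 genes against its mean log2(signal + 16) over the 6 arrays; red points were called higher (3611), blue points lower (3199) and grey points were not called. Rises reach 10.11 (Tnnt2) and falls reach -4.98 (Platr10).

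Genes for energy supply changed less as a class than the contractile genes, and their small shifts depended on the scaling. Of 29 genes for fatty acid use, 18 rose and 0 fell, with a median of 0.88, which became 0.56 after centring. Lipoprotein lipase (Lpl), which frees fatty acids from lipoproteins, rose by 3.31 ± 0.17 and the fatty acid transporter Cd36 by 2.59 ± 0.51. Ppargc1a, a coactivator that drives mitochondrial genes, read 125, 45.0 and 72.9 units against 322, 349 and 289 units, a difference of 1.87 ± 0.32. The dehydrogenase Acadl rose by 1.86 ± 0.09. The heart-type fatty acid binding protein Fabp3 was bright in both stages, at 3353 to 3962 units and 2802 to 3225 units, and was not called at -0.28 ± 0.08.

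Genes of the citric acid cycle and of the respiratory chain, which drive mitochondrial ATP production, were called in shares that depended on the scaling. Of 20 citric acid cycle genes, 4 rose (20%, beside 19.8% of all genes) and 0 fell, against 0 and 8 after scaling to the controls, with a median of 0.24 that turned negative after centring (-0.08) and after scaling to the controls (-0.51). Of 61 subunits of the respiratory chain and ATP synthase, 9 rose (14.8%) and 1 fell, against 2 and 18 after scaling to the controls, with a median of 0.30 that turned negative in the same way (-0.02 and -0.44). Pdha1, of the pyruvate dehydrogenase complex, rose by 1.15 ± 0.07 from 5596 to 6199 units up to 12608 to 13399 units, and was not called after scaling to the controls (0.40). For isocitrate dehydrogenase Idh2, the brighter probe set rose by 1.25 ± 0.10, or 0.50 and not called after scaling to the controls, and the other fell by 1.09 ± 0.32. Cox7c, a subunit of cytochrome c oxidase, was the subunit called lower (-1.78 ± 0.36), on a dim probe set with 123 to 164 units in ES-LIF(+) and 10.5 to 47.7 units in CM.

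The subunits that rose included the muscle forms of cytochrome c oxidase. Cox6a2 read 214, 170 and 173 units in ES-LIF(+) and 3019, 3026 and 2636 units in CM, a difference of 3.86 ± 0.19, while the form of other tissues, Cox6a1, differed by 0.27 ± 0.07 and was not called. Cox8b rose by 3.53 ± 0.47, beside 0.54 ± 0.07 for Cox8a, which was not called with all arrays and was called without CM array 1 (0.59). Cox7a1 rose by 0.99 ± 0.14, or 0.25 and not called after scaling to the controls, beside 0.05 ± 0.07 for Cox7a2, which was not called and turned negative after centring (-0.27) and after scaling to the controls (-0.70).

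A set of 35 pairs of related genes was drawn up. In most of them, the form known from stem cells or most tissues was named first. The form known from heart, muscle or other differentiated cells was named second. Some pairs, such as Ldhb and Ldha or Ptbp1 and Ptbp2, did not follow this order. Both genes were measured in 32 pairs. In 17 pairs the second rose and the first was not called, in 5 both rose and in 2 the first fell while the second rose. Of the remaining 8, the first fell alone in 2, the first rose alone in 1 and neither was called in 5. These counts depended on the scaling. After centring, the second rose and the first was not called in 13 pairs, both rose in 2 and the first fell while the second rose in 5, and of the remaining 12 the first fell alone in 3, both fell in 3, the second fell alone in 1 and neither was called in 5. In glycolysis, the muscle phosphoglycerate mutase Pgam2 read 76.9, 127 and 193 units against 4315, 5353 and 4414 units, a difference of 5.06 ± 0.39, while Pgam1 read 12469 to 13037 units against 10246 to 14105 units and was not called (-0.10 ± 0.12; 0.02 without CM array 2). Muscle glycogen phosphorylase (Pygm) rose by 5.35 ± 0.39, beside 0.59 ± 0.35 for the liver form Pygl, which was not called. The regulatory myosin light chain of nonmuscle cells, Myl12b, was not called at -0.32 ± 0.07, beside the rise of 8.08 for Myl7.

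The ADP/ATP carrier of heart, Slc25a4, which exports ATP from mitochondria, rose by 1.04 ± 0.09 from 12871 to 14523 units up to 25698 to 29495 units, or 0.29 and not called after scaling to the controls, while Slc25a5 was not called at -0.24 ± 0.06. Of the 8 Slc25a5 probe sets, however, 4 were called lower, and the lowest difference was -1.60. Lamin A/C (Lmna), a nuclear envelope protein of differentiated cells, rose by 2.67 ± 0.16. Lamin B1 (Lmnb1) was not called at -0.58 ± 0.13 with all arrays and was called lower after centring (-0.90), without ES-LIF(+) array 2 (-0.73) and without CM array 3 (-0.67). As deposited, the pairs in which the first form fell and the second rose were the cadherins Cdh1 and Cdh2 and the estrogen-related receptors Esrrb and Esrrg, of which Esrrg was not called after scaling to the controls (0.80).

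**Figure D3:**
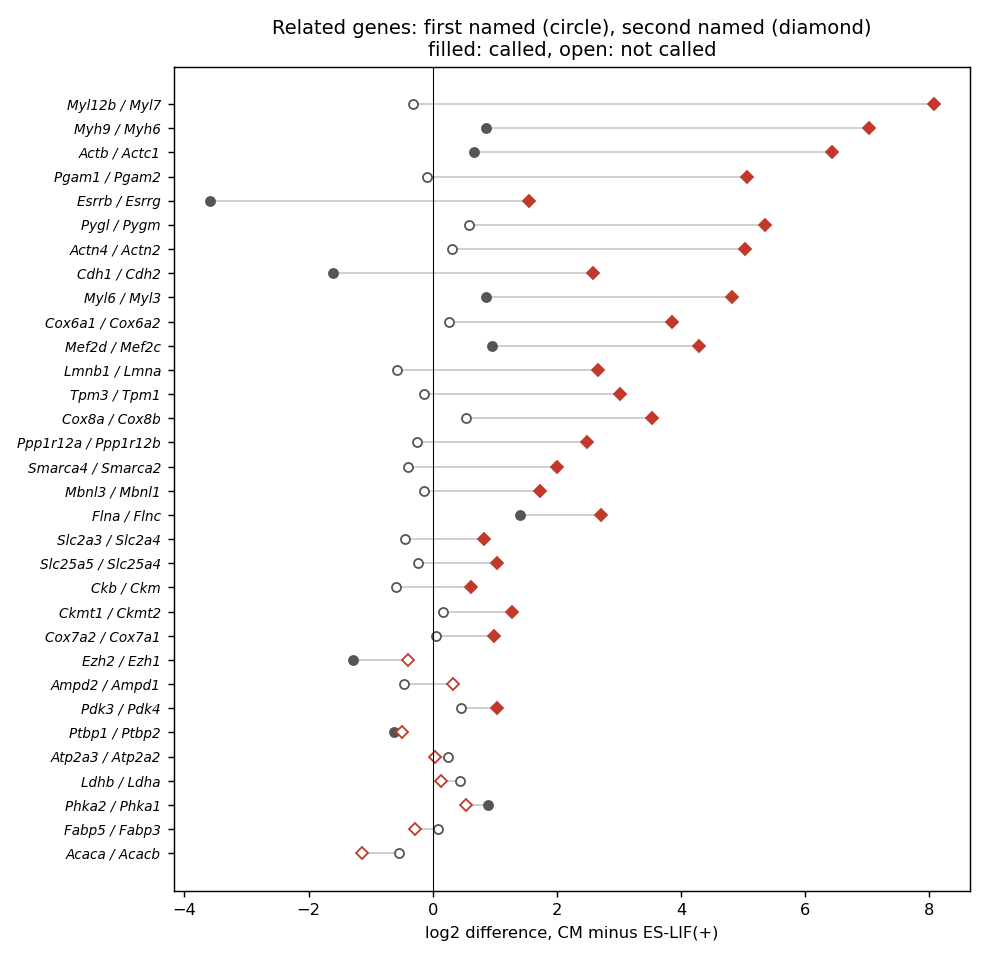
Log2 difference, CM minus ES-LIF(+), of both genes of 32 pairs. Circles are the first named gene (in most pairs the stem cell or common form), filled where called. Diamonds are the second (in most pairs the form of heart, muscle or other differentiated cells), also filled where called. As deposited, in 17 pairs (13 after centring) only the diamond is filled and lies to the right, as for Pgam1 (-0.10) and Pgam2 (5.06), while in Cdh1 and Cdh2 the signs are opposite (-1.60 and 2.59).

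Glycolysis as a whole had 7 of 21 genes higher (33.3%, beside 19.8% of all genes) and 2 lower (9.52%, beside 17.6%). Its median of 0.25 turned negative after centring (-0.07) and after scaling to the controls (-0.50) and was 0.15 without CM array 3. Enolase 3 (Eno3), the muscle form, rose by 3.09 ± 0.08 from 698 to 725 units up to 5965 to 6417 units. Of the hexokinases, which trap glucose in the cell, Hk1 rose by 1.59 ± 0.10, and Hk2 fell by 0.91 ± 0.10 on the log2 scale, from 3425 to 3943 units down to 1905 to 2057 units. Aldolase C (Aldoc) was the other gene that fell (-0.97 ± 0.20). In the list for energy transfer, 7 of 13 rose, 1 fell and the median of 0.61 turned negative after scaling to the controls (-0.14). Myoglobin (Mb), which stores oxygen in muscle, read 71.0, 16.9 and 16 units against 2895, 3694 and 3267 units, a difference of 6.19 ± 0.42, and adenylate kinase 4 (Ak4) fell by 1.20 ± 0.17.

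Genes that make building blocks for growth fell together. Of 16 genes of serine, glycine and one-carbon metabolism, 11 fell and 0 rose, with a median of -1.11, beside 17.6% of all genes lower. The cationic amino acid transporter Slc7a3 read 5735, 6695 and 5707 units in ES-LIF(+) and 951, 886 and 993 units in CM, a difference of -2.66 ± 0.09. Glycine decarboxylase (Gldc) fell by 2.04 ± 0.10, the hydroxymethyltransferase Shmt1 by 1.82 ± 0.12 and the serine pathway enzyme Psat1 by 1.50 ± 0.10. Phgdh, the enzyme at the entry of the serine pathway, was not called at -0.02 ± 0.09 (-0.34 after centring), a value whose sign turned without ES-LIF(+) array 2 (0.03) and without CM array 2 (0.02). Of the 4 Phgdh probe sets, 1 was called lower. Of 24 genes for nucleotide synthesis, 18 fell and 0 rose, with a median of -0.95. The purine enzymes Pfas and Ppat fell by 1.83 ± 0.12 and 1.70 ± 0.08, the pyrimidine enzyme Dhodh by 1.63 ± 0.10, and Dut, which keeps uracil out of DNA, by 1.82 ± 0.08.

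Pluripotency genes fell as a class but remained readable in CM. Of 36 measured members, 35 fell and 1 rose, with a median of -2.30. Pou5f1, which encodes OCT4, read 12088, 10926 and 11080 units in ES-LIF(+) and 1771, 1557 and 2233 units in CM, a difference of -2.62 ± 0.10 (adjusted p = 3.13e-11). Nanog read 6904, 7133 and 7745 units against 1384, 1334 and 1988 units, a difference of -2.22 ± 0.12. Sox2 read 10498, 11408 and 11057 units against 1178, 1095 and 1357 units, a difference of -3.17 ± 0.10. The CM arrays lay below every ES-LIF(+) array in these genes. All 10 stem cell markers remained above the median signal of the CM arrays.

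Zfp42 (Rex1), a marker of the undifferentiated state, fell by 3.25 ± 0.22 and Esrrb, a nuclear receptor of naive stem cells, by 3.59 ± 0.19. Dppa5a, an RNA-binding protein of early embryo and germ line, fell least of the stem cell markers, from 25244, 23602 and 22194 units to 8780, 9048 and 13334 units (-1.21 ± 0.13). The stem cell marker Utf1 fell by 1.46 ± 0.10 on the probe set that represents it. Of its 3 probe sets, 2 were called lower and 1 was called higher (1.94). Of the signals in the list, Fgf4 fell by 3.15 ± 0.10, Gdf3 by 3.20 ± 0.11 and Tdgf1 (Cripto), a Nodal coreceptor, by 2.08 ± 0.09. The transcription factors Mycn and Mybl2, which drive proliferation, fell by 2.35 ± 0.10 and 2.70 ± 0.15. Tbx3, which acts in naive stem cells and also in the conduction system of the heart, was the member that rose, from 283 to 445 units up to 678 to 737 units (0.94 ± 0.15), and it was not called after scaling to the controls (0.19).

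The 12 largest falls were taken among called genes with a mean of at least 500 units in one of the stages and no overlap of their arrays. The noncoding RNA Platr10 read 909, 892 and 918 units in ES-LIF(+) and 16.5, 8.9 and 14.9 units in CM, a difference of -4.98 ± 0.18 and the deepest fall of the comparison. Irak3, a brake on Toll-like receptor signaling, read 598, 678 and 597 units against 55, 2.5 and 32.4 units. Lrrc34 fell by 4.06 ± 0.23 and Ccnb1ip1, a meiotic crossover protein, by 3.80 ± 0.16. The noncoding RNA Lncenc1, the testis RNA-binding protein Rbmxl2, the surface glycoprotein Gpa33, the F-box protein Fbxo15, the transcription factor Tfcp2l1, Mageb16, the orphan receptor Nr0b1 and Enox1 fell by 3.61 to 3.79. Of 22 germ-cell associated genes, 13 fell, 1 rose and the median was -1.005. The piwi-pathway gene Tdrd12 fell by 3.14 ± 0.26, Sycp3, of the meiotic chromosome axis, by 3.07 ± 0.22 and the germ cell helicase Ddx4 by 2.62 ± 0.20. Of 12 neural genes, 4 fell (33.3%, beside 17.6% of all genes) and 1 rose (8.33%, beside 19.8%). The falls included Stmn2, a microtubule regulator, from 6694 to 7850 units down to 1053 to 1069 units (-2.75 ± 0.08).

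LIF was in the medium of the ES-LIF(+) cells. Of 15 genes of the LIF receptor pathway, 7 rose and 7 fell (46.7% each, beside 19.8% and 17.6% of all genes). After scaling to the controls, 1 rose and 7 fell. The median of 0.31 turned negative after centring (-0.01) and after scaling to the controls (-0.44). The feedback inhibitor Socs3 read 3565, 4099 and 3966 units in ES-LIF(+) and 670, 522 and 576 units in CM, a difference of -2.69 ± 0.11. The kinase Pim3 fell by 2.18 ± 0.10 and the receptor Lifr by 1.39 ± 0.20. The related receptor Osmr, for oncostatin M, rose by 3.37 ± 0.26 from 17.3 to 62.5 units up to 521 to 609 units, and the transducer Stat3 rose by 1.08 ± 0.11, or 0.34 and not called after scaling to the controls.

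Genes that run DNA replication and cell division fell. Of 40 replication genes 38 fell and 0 rose, with a median of -1.53, and of 40 cell cycle genes 34 fell and 0 rose, with a median of -1.22. The CM arrays lay below each ES-LIF(+) array for 39 of the 40 replication genes and 37 of the 40 cell cycle genes, beside 25.9% of all genes. The helicase subunit Mcm6 read 7656, 7481 and 8112 units in ES-LIF(+) and 2895, 2094 and 2223 units in CM, a difference of -1.70 ± 0.10. Polymerase epsilon (Pole) fell by 2.29 ± 0.11, the fork proteins Timeless and Tipin by 2.19 ± 0.08 and 1.98 ± 0.08, and the clamp loader Rfc5 by 2.10 ± 0.07. The sliding clamp Pcna fell less, by 0.82 ± 0.07, and was still at 9697 to 10925 units in CM. Of the mitotic genes, the spindle checkpoint target Cdc20 read 11238, 10831 and 10382 units against 3763, 4162 and 4251 units, a difference of -1.41 ± 0.07. Topoisomerase Top2a fell by 1.48 ± 0.09, the chromosomal passenger Incenp by 2.07 ± 0.10, and the kinases Nek2 and Ttk by 1.98 ± 0.10 and 1.97 ± 0.09.

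The start regions of a mitotic pair and of a replication gene are shown because they carry elements known from such genes. The cell cycle homology region, TTTGAA, a binding element of the MuvB complexes that time mitotic genes, was held by 20 of the 35 promoters of cell cycle genes (57.1%), beside 17.9% of all promoters, and the CCAAT box by 26 of the 35 (74.3%), beside 37.4%. The E2F-like motif TTTNNCGC was held by 13 of the 38 promoters of replication genes (34.2%), beside 5.17% of all promoters. These elements were not particular to 1 list, since TTTNNCGC was held by 20% of cell cycle promoters, TTTGAA by 21.1% and CCAAT by 55.3% of replication promoters, and CCAAT by 71.4% of those of cardiac transcription factors, and no difference between lists was tested. Promoters were found for 32 of the 40 cell cycle genes and 31 of the 40 replication genes, some with several promoters. Among promoters of the genes on the array, 13.4% held TTTGAA, 37.4% CCAAT and 6.98% TTTNNCGC. The sequences give the 150 bases before the start on the gene's strand, for Cdc20 (chr4:118437344-118437493, minus strand), Top2a (chr11:99024190-99024339, minus strand) and Mcm6 (chr1:128359706-128359855, minus strand). Capitals mark TTTGAA and CCAAT on either strand in Cdc20 and Top2a and TTTNNCGC on either strand in Mcm6, where a pair of matches on opposite strands shares bases.
Cdc20: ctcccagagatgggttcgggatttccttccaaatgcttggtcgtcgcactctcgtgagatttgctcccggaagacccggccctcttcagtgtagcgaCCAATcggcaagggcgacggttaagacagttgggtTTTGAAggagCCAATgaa
Top2a: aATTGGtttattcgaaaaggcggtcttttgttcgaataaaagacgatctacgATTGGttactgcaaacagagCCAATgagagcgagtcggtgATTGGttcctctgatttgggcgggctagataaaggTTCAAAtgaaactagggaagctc
Mcm6: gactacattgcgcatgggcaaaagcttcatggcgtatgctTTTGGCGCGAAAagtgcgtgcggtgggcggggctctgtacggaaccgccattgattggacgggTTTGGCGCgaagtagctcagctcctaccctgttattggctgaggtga

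The TTTGAA element began 18 bases before the start in Cdc20 and 23 bases before it in Top2a, with 4 CCAAT boxes upstream in Top2a. Among the genes that slow the cycle, 11 of 19 rose, 1 fell and the median was 1.10. The growth arrest gene Gas1 rose by 4.20 ± 0.21, the CDK4 and CDK6 inhibitor Cdkn2b by 3.97 ± 0.40 and the zinc finger gene Plagl1 by 3.21 ± 0.10. The p53 target Cdkn1a (p21) read 1337, 1308 and 1253 units in ES-LIF(+) and 7953, 7736 and 6963 units in CM, a difference of 2.52 ± 0.07. The relatives Gadd45g and Gadd45a, which respond to stress, parted, with 3.32 ± 0.18 for Gadd45g and -0.96 ± 0.14 for Gadd45a.

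The nuclear machinery followed the proliferation genes. Of 48 nuclear transport genes, 32 fell and 0 rose, with a median of -0.92. The nucleoporins Nup210 and Nup160 fell by 1.89 ± 0.14 and 1.69 ± 0.10, while Ran, the GTPase that gives transport its direction, was not called at -0.49 ± 0.08 and was called lower after centring (-0.81). Of the 6 Ran probe sets, 1 was called higher and 2 lower. Of 32 chromatin regulators, 22 fell and 3 rose, with a median of -1.14. Dnmt3l, a cofactor of DNA methylation, fell by 2.95 ± 0.19, the 5-methylcytosine oxidase Tet1 by 2.91 ± 0.13, the Polycomb protein Cbx7 by 2.50 ± 0.09 and the Polycomb methyltransferase Ezh2 by 1.29 ± 0.09. The members that rose were Smarcd3, Hmga2 and Smarca2. Smarcd3 (Baf60c), a subunit of SWI/SNF remodelers known from heart formation, read 160, 162 and 201 units against 1918, 1892 and 1771 units, a difference of 3.31 ± 0.17. Hmga2, an architectural protein of embryonic mesenchyme, rose by 2.24 ± 0.14 and the remodeling ATPase Smarca2 by 2.00 ± 0.28, beside -0.40 ± 0.07 for its counterpart Smarca4, which was not called.

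Splicing regulators did not share a direction. Of 30, 7 rose (23.3%, beside 19.8% of all genes) and 10 fell (33.3%, beside 17.6%), with a median of -0.26. Rbm24 and Rbm20, which splice sarcomere transcripts, rose by 4.98 ± 0.33 and 2.62 ± 0.36. Mbnl2 and Celf2, antagonists in the timing of heart splicing, rose by 3.20 ± 0.11 and 2.52 ± 0.15. The RNA-binding protein Elavl2 fell by 2.51 ± 0.11.

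**Figure D4:**
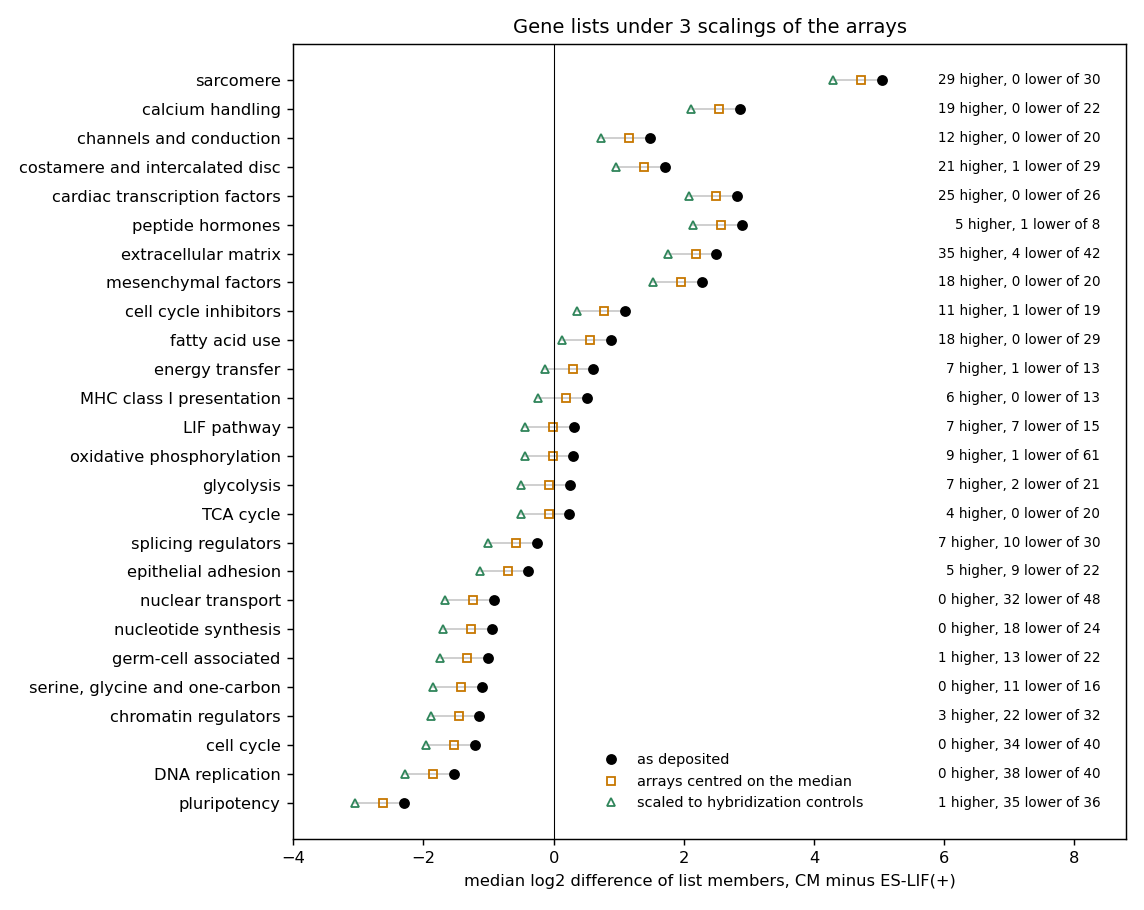
Median log2 difference, CM minus ES-LIF(+), of the members of 26 gene lists; black circles are signals as deposited, orange squares arrays centred on their median and green triangles arrays scaled to the hybridization controls, with the number of members called higher or lower as deposited at the right. The sarcomere list lies at 5.04 and pluripotency at -2.30, and both keep their side of 0 under the 3 scalings, while the lists for the citric acid cycle, oxidative phosphorylation, glycolysis and the LIF pathway cross 0 under both other scalings, and energy transfer and MHC class I presentation cross it when scaled to the controls.

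Genes of mesenchyme and matrix rose along with those of heart muscle. Of 20 mesenchymal factors 18 rose and 0 fell, with a median of 2.28, and of 42 extracellular matrix genes 35 rose and 4 fell, with a median of 2.50. Cdh11, a cadherin of mesenchyme, read 84.8, 68.8 and 77.5 units in ES-LIF(+) and 8457, 7566 and 7136 units in CM, a difference of 6.38 ± 0.10 (adjusted p = 4.93e-15). The collagen chain Col1a1 read 489, 294 and 338 units against 19925, 20699 and 22046 units, a difference of 5.77 ± 0.16. Lysyl oxidase (Lox), which crosslinks collagen, rose by 7.52 ± 0.46, and the surface protein Tm4sf1 by 7.63 ± 0.15. The matrix proteins Fbln2, Postn and Col3a1 rose by 6.26 ± 0.13, 5.95 ± 0.44 and 5.94 ± 0.29. The members that fell included Lama1, the laminin chain of the early embryo (-1.71 ± 0.21), and Col18a1, of basement membranes (-1.70 ± 0.12). Snai2 and Foxc2, transcription factors of mesenchyme, rose by 3.83 ± 0.24 and 4.26 ± 0.40, and S100a4 by 5.60 ± 0.37.

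Epithelial adhesion genes divided, with 5 of 22 higher (22.7%, beside 19.8% of all genes), 9 lower (40.9%, beside 17.6%) and a median of -0.39. Cdh1 (E-cadherin) read 8254, 8703 and 8508 units against 3070, 2615 and 2679 units, a difference of -1.60 ± 0.07, while Cdh2 (N-cadherin), the cadherin of the intercalated disc, read 793, 790 and 783 units against 5191, 4993 and 4315 units, a difference of 2.59 ± 0.08. Epcam, an adhesion molecule of epithelia and stem cells, fell by 1.75 ± 0.09. The keratin Krt7 and the cadherin Cdh3 were among those that rose, by 1.76 ± 0.26 and 1.47 ± 0.16. Of 13 genes for MHC class I presentation, which shows peptides to T cells, 6 rose and 0 fell as deposited and 2 rose after centring, and the median of 0.51 turned negative after scaling to the controls (-0.23). Beta-2-microglobulin (B2m) read 2768, 2972 and 2985 units against 11146, 13240 and 13016 units, a difference of 2.09 ± 0.09, and the peptide transporter Tap1 rose by 1.93 ± 0.19. For the class I gene H2-D1, whose relatives are close in sequence, 3 of 9 probe sets rose.

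Markers of other cell types moved with these groups, and their part in the results was not tested. Of 12 fibroblast markers 10 rose and 0 fell (median 3.84), and their summed signal went from 1320 to 1732 units on the ES-LIF(+) arrays up to 51202 to 52402 units on the CM arrays, with 1 marker below the array median in CM. Decorin (Dcn) and lumican (Lum), proteoglycans of fibroblasts, rose by 4.89 ± 0.30 and 3.95 ± 0.30. Of 9 smooth muscle markers, 8 rose and 0 fell (median 3.65), and the sum went from 4282 to 5539 units up to 66190 to 75090 units. Acta2 and Tagln, which embryonic heart muscle also expresses, rose by 4.08 ± 0.15 and 3.65 ± 0.07, and Actg2 and Cnn1 by 5.79 ± 0.14 and 4.56 ± 0.18. Of 10 mesothelial and epicardial markers, 6 rose (60%, beside 19.8% of all genes) and 0 fell. Upk3b and Upk1b, of mesothelium, rose by 4.50 ± 0.45 and 4.03 ± 0.53, while Wt1, the defining factor of epicardium, was not called, at 128 to 266 units in ES-LIF(+) and 153 to 192 units in CM.

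Endothelial markers did not share a direction. Of 13, 6 rose (46.2%, beside 19.8% of all genes) and 3 fell (23.1%, beside 17.6%). Their summed signal went from 2683 to 3503 units up to 4055 to 5066 units. Cdh5 and Emcn rose by 2.79 ± 0.39 and 2.62 ± 0.32, while Pecam1, Tek and Vwf fell by 0.95 ± 0.21, 0.90 ± 0.24 and 1.85 ± 0.37. Of 10 markers of macrophages and blood, 4 rose (40%, beside 19.8% of all genes) and 0 fell. Those that rose included Lyz2 (2.67 ± 0.17) and Tyrobp (2.00 ± 0.43). Of 13 skeletal muscle markers, 3 rose (23.1%, beside 19.8% of all genes), among them Tnnt3 (3.83 ± 0.45). The 2 that fell (15.4%, beside 17.6%) were Mylpf (-1.88 ± 0.22) and Actn3 (-1.37 ± 0.19). The determination factors Myod1 and Myf5 were not called and stayed at or under 140.0 units on each CM array, and 10 of the 13 members were below the array median in CM. Of 14 endoderm and liver markers, 4 rose (28.6%) and 0 fell, among them Foxa2 (2.45 ± 0.30) and Sox17 (1.84 ± 0.23). Of 7 cartilage and bone markers, 2 rose as deposited (28.6%, beside 19.8% of all genes) and 0 rose after centring or without CM array 3.

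Red cell genes were uneven among the CM arrays. Embryonic beta globin Hbb-bh1 read 5.3, 7.2 and 5.0 units in ES-LIF(+) and 424, 1812 and 7947 units in CM, a difference of 6.41 ± 0.77. Embryonic alpha globin Hba-x read 21.4, 8.8 and 10.9 units against 129, 712 and 8023 units, a difference of 5.02 ± 0.95. Hbb-y read 7.1, 40 and 8.1 units against 6.0, 10.9 and 1532 units, overlapped between the stages and was not called (1.63 ± 1.12; -0.37 without CM array 3). Of the 3 Hbb-y probe sets, 2 were called higher. Array 3 was also highest for Alas2, the heme synthesis enzyme of red cells, at 169 units against 10.8 and 12.8 units. That gene was not called with all arrays (1.23 ± 0.55) and was called without CM array 1 (1.71) or without CM array 2 (1.66). Of 9 erythroid genes 2 rose (22.2%, beside 19.8% of all genes) and 0 fell, 8 were highest on CM array 3, and their sum on the CM arrays was 1136, 3234 and 18792 units.

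The same CM array was highest for other genes that did not belong to heart muscle. It was the highest of the CM arrays for 38.7% of all genes, for 25 of the 36 pluripotency genes, for 10 of the 10 stem cell markers, for 28 of the 40 cell cycle genes and for 10 of the 14 endoderm and liver genes, against 8 of the 30 sarcomere genes. Ttr, the thyroxine carrier of liver and yolk sac, read 233, 538 and 1311 units on the CM arrays against 1.8 to 56.6 units in ES-LIF(+), a difference of 3.85 ± 0.61. Rbp4, the retinol carrier of the same tissues, read 164, 125 and 758 units and was not called (1.17 ± 0.48), but was called without CM array 1 (1.46), without CM array 2 (1.63) or without ES-LIF(+) array 2 (1.46), and stood at 0.41 without CM array 3. Without CM array 3, pluripotency still had 35 members lower and 1 higher, and the sarcomere list 29 higher and 0 lower.

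**Figure D5:**
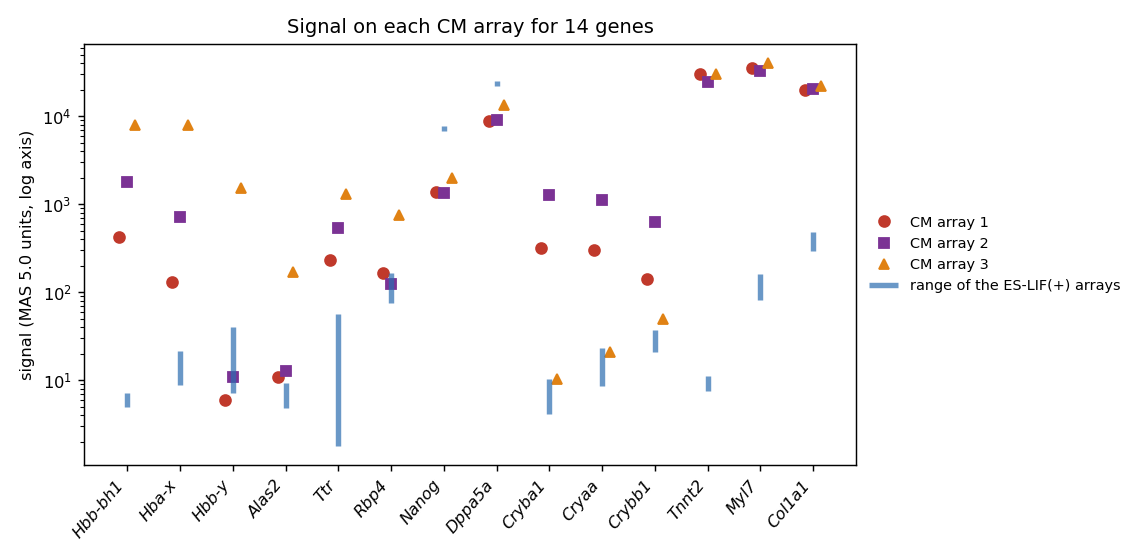
Signal in MAS 5.0 units (log axis) of 14 genes on each CM array (circle, array 1; square, array 2; triangle, array 3), with the range of the 3 ES-LIF(+) arrays as a blue bar. The globins Hbb-bh1 and Hba-x were highest on array 3 (7947 and 8023 units), the lens crystallins Cryba1, Cryaa and Crybb1 on array 2 (1284, 1117 and 637 units), and Tnnt2, Myl7 and Col1a1 lay close together on all 3.

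Set against CP, the stage most like it, CM differed in fewer genes, with 1217 higher (6.69%) and 1354 lower (7.44%), 14.1% in all. That comparison shares the CM arrays with the one above, so the values are given side by side only. Of the sarcomere genes 28 were higher in CM than in CP and 0 were lower (median 4.62, beside 5.04 against ES-LIF(+)). Tnnt2 read 414, 602 and 527 units in CP and was 5.76 ± 0.18 higher in CM, and Myh6 read 151, 195 and 106 units and was 6.84 ± 0.17 higher. Of the cardiac transcription factors 17 were higher and 0 lower than in CP (median 1.61), with Tbx20 4.22 ± 0.21 and Nkx2-5 3.71 ± 0.25 higher. Hand2, in contrast, read 2002, 1868 and 1919 units in CP, a range that overlapped the CM arrays, and was not called (-0.08 ± 0.25). Of the pluripotency genes 34 were lower in CM than in CP and 0 higher. Dppa5a read 28717, 33408 and 28114 units in CP, above each ES-LIF(+) array and each CM array.

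Matrix and fibroblast genes ran differently between these stages. Of the fibroblast markers 0 were higher and 6 lower in CM than in CP, and of the extracellular matrix genes 6 were higher and 12 lower. Dcn read 16985, 17672 and 16645 units in CP and was 3.76 ± 0.30 lower in CM, and Lum was 2.67 ± 0.30 lower. Col1a1 read 25019, 28394 and 26319 units in CP and was not called between CM and CP (-0.35 ± 0.16), and neither was Cdh11 (0.22 ± 0.10). Of the 61 respiratory chain genes, 24 were higher and 1 lower in CM than in CP. Lbh, a transcription cofactor of developing heart and limb that the study also assayed by PCR, rose from 130, 196 and 147 units in ES-LIF(+) to 8974, 8712 and 7539 units in CM, a difference of 5.61 ± 0.12.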

How the data were processed

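RNA of 12 samples, 3 per stage, was read on the Affymetrix Mouse 430 2.0 array. The values deposited by the authors are linear signal intensities from MAS5, per the submitters' processing notes and the study's methods, scaled to a common trimmed mean, with no detection calls used here. The 3 replicates per stage were sampled independently by the study's account. No reference genome entered these values. Of the 45037 probe sets analysed, 34945 name 1 gene in the platform annotation, 932 name several and 9160 none, and for each of the 18193 genes named alone the brightest probe set over the 12 arrays stood for the gene. Signals were taken as log2(signal + 16) and fitted with limma 3.58.1 in R 4.3.3, with lmFit over all 4 stages and eBayes with trend. Benjamini-Hochberg adjustment ran over all probe sets, for the calls of genes as well. Calls were made at adjusted p under 0.05 together with a change of over 1.5-fold. The fit was tested on simulated data. The alternatives were centring, quantile normalization, pseudocounts of 1 and 64, filters on dim genes, only the 6 arrays, no trend, the replicate block, each array left out, a 2-fold limit, the mean over probe sets and the methods' one-way ANOVA. Scaling to the hybridization controls was chosen after seeing the data.

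Genes named in the text are the 12 largest rises and 12 largest falls without overlap and with a mean signal of at least 500 in the brighter stage, from each list the called members that differed most (up to 4) and those of the opposite direction (up to 2), the paired genes, the genes the study assayed by PCR and the cell type markers. Some further list members were named after their values were seen. The lists and pairs were chosen with earlier results of these data known. Samples of the 2 stages with the same number did not deviate together (correlations of -0.004, -0.03 and -0.01), so they were not treated as pairs. Promoter sequences are those of RefSeq on GRCm38.p6.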

Additional observations from a re-analysis of the deposited data

Results flagged for a closer look

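The 18 hybridization control probe sets, which belong to no comparison of genes, differed between the stages by a median of 0.75 (CM minus ES-LIF(+), range 0.54 to 1.03), and all 18 were higher on each CM array than on each ES-LIF(+) array. Their mean log2 signal was 10.99 to 11.23 on the ES-LIF(+) arrays and 11.62 to 12.05 on the CM arrays. The 27 poly-A control probe sets are meant to read RNA added at another step, which the study's methods do not mention. They had a median difference of 0.003 with a wide range, -1.21 to 1.01, and 3 of them were higher in CM without overlap. What set the hybridization controls apart was not tested.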

How the results depend on the processing

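Scaling moved the counts most. With arrays centred on their median, 2383 genes were called higher and 4783 lower, and 5054 probe sets higher and 9381 lower, against 3611, 3199, 7719 and 5926 as deposited. With arrays scaled to the hybridization controls, an alternative chosen after seeing the data, 1280 genes and 2646 probe sets were higher and 6825 genes and 14295 probe sets lower. A filter for signals above the array median on all 6 arrays, which tests fewer genes, left 2210 genes and 4067 probe sets higher, and a 2-fold limit left 1767 genes and 3360 probe sets lower. The other alternatives kept these counts within 1.5 times. Leaving out each array in turn gave 3357 to 3510 genes higher and 3081 to 3176 lower. Medians that changed sign were those of the citric acid cycle (-0.078 centred, -0.51 scaled to the controls), oxidative phosphorylation (-0.016 and -0.44), glycolysis (-0.069 and -0.50), the LIF pathway (-0.0067 and -0.44, and -0.25 with the filter on all 6 arrays), MHC class I presentation (-0.23 scaled to the controls), energy transfer (-0.14), endothelial genes (-0.30), cartilage and bone (-0.074) and skeletal muscle (-0.19, and -0.38 and -1.63 with the filters on 3 of 12 and on all 6 arrays). The filter on all 6 arrays also turned mesothelial (-0.028) and macrophage genes (-0.35), the mean over probe sets turned splicing regulators (0.21), and neural genes turned without ES-LIF(+) array 1 (0.064) or CM array 2 (0.024), with a range of -0.11 to 0.064 over the arrays left out in turn. Atp2a2 (-0.71) and Cox7a2 (-0.70) changed sign when scaled to the controls. The cause of these changes beyond the shift itself was not tested. Of the 189 called genes of the text, 170 kept their call under every alternative that tested them. The filters on dim genes removed some of these, such as Tnnt2, and a removed gene was not counted as lost.

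With the replicate block, 3594 genes were higher and 3188 lower, and 7667 probe sets higher and 5887 lower. Deviations of same-numbered samples of the 2 stages did not correlate, and no count moved by over 1.5 times under the block. Same-numbered ES-LIF(+) and CM samples also sit together in the order of deposit, which the CP numbers do not follow, so the block does not stand for that order. Whether such samples share more than a number is not given by the labels. With 3 arrays per stage and no detection calls, signals well under the array median have little resolution, and the size of a rise from such a signal depends on the constant added to it.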

Other observations

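Several crystallin genes, known from the eye lens, were uneven among the CM arrays. They were noticed among those with the largest range across the CM arrays, after their values were seen, and no test was run. The crystallin Cryba1 read 315, 1284 and 10.4 units on CM arrays 1, 2 and 3, and Cryaa read 303, 1117 and 21.1 units. Crybb1 read 143, 637 and 49.1 units, and Crygs 50, 227 and 7.2 units. In each of these 4 genes CM array 2 was the highest and CM array 3 the lowest. The range across the CM arrays was 5.62 on the log2 scale for Cryba1 and 4.93 for Cryaa, beside 6.14 for Hbb-y and 5.79 for Hba-x, the globins that were highest on CM array 3. In ES-LIF(+), Cryba1 stayed at 4.1 to 10.3 units. Most of the 16 crystallin genes looked at, which leave out Cryab, had this order, but not all. Among the others with this order, Cryba2 read 87.0, 315 and 42.3 units and Crybb3 read 275, 410 and 173 units. Cryab, whose rise is given above, read 7720, 8527 and 7782 units on CM arrays 1, 2 and 3. Cryga and Crybg2 were highest on CM array 3 and lowest on CM array 2. On CM arrays 1, 2 and 3, Crybg3 read 414, 493 and 457 units and Crygd read 7.9, 141 and 11.0 units. Crybg2 was called lower in CM (-1.44), beside 5 of the 16 called higher. Of all genes, 19.8% were called higher.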
